A study of Drosophila melanogaster with 62 samples.

Results

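The genes described here were *mei-41*, *mus304*, *tefu*, *grp*, *lok*, *Wee1* and *Myt1*, which encode the DNA replication and damage checkpoint kinases of *Drosophila*, a kinase partner and the kinases that hold Cdk1 inactive. They were chosen by their FlyBase symbols and are 7 of the 17510 gene rows of the count table. MEI-41, the fly ATR kinase, acts with its partner MUS304 (ATRIP) where replication leaves single-stranded DNA and activates GRP, the fly Chk1. TEFU is the fly ATM kinase, which responds to DNA double-strand breaks, and LOK is the fly Chk2, a kinase downstream of damage sensing. Wee1 and Myt1 phosphorylate Cdk1 and thereby delay entry into mitosis. In the early embryo the mother supplies these products, and the MEI-41 and GRP checkpoint is known for slowing the last syncytial nuclear division cycles (NC) before cellularization.

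Poly(A)-selected RNA from single oocytes and single embryos had been sequenced, and the question addressed by the comparisons was how transcript levels differed when the mother lacked functional BRAT, an RNA-binding repressor of maternal mRNAs. The *brat* mutants came from mothers with the genotype *brat* Df/fs1, a deficiency (Df(2L)TE37C-7) over a female-sterile allele with a substitution in the NHL domain, crossed to their brothers. The *brat* hets came from *brat* Df/cyo or *brat* fs1/cyo mothers, and the allele of each *brat* het library was not given. The *HisRFP* controls came from w;His2AVRFP(III), and embryos of all 3 genotypes carried the His2Av-RFP transgene used for staging. Embryos are named by the mother's genotype. *brat* mutants and *HisRFP* were sampled as dissected oocytes, as NC10 embryos, midway through NC12 and NC13, and at the start (early) and the middle (later) of NC14, and *brat* hets at all of these but NC13 and early NC14. Oocytes were staged by morphology and embryos by nuclear density. Replicates are lettered, with A, C and D at NC13 (n = 3) and A to D in all other groups (n = 4), for 62 libraries in all. Each library is a separate oocyte or embryo, and the labels do not say whether the animals of a group shared a mother, so p-values measure the spread between these individuals.

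Between 4000899 and 41029921 reads per library were counted on genes. Levels are given as CPM, the reads of a gene per 1e+06 counted reads, after TMM scaling over all libraries. This is a share of the counted RNA of 1 oocyte or embryo. Loss of a transcript and gain of all others therefore cannot be told apart. Poly(A) selection can also make a level depend on tail length, which was not measured. A difference in level therefore need not be a difference in transcript number. A gene was called higher or lower when edgeR's quasi-likelihood test gave an adjusted p under 0.05 (Benjamini-Hochberg, over all genes tested) and an absolute log2 fold change over 1. *brat* mRNA averaged 510 ± 26.8 CPM in *brat*-mutant and 757 ± 195 CPM in *HisRFP* oocytes, and 558 ± 106 CPM in *brat* mutants and 854 ± 110 CPM in *HisRFP* at NC10 (SD, n = 4 each). *brat* mutants lay below *HisRFP* without overlap at both stages, with log2 fold changes of -0.60 (adjusted p = 0.231) and -0.59 (adjusted p = 0.0569). At early NC14 it averaged 990 ± 28.7 CPM in *brat* mutants and 101 ± 5.65 CPM in *HisRFP* (3.26, adjusted p = 2.41e-07). The summed follicle cell markers of the oocytes ran from 55.0 to 266 CPM in *brat* mutants, from 17592 to 59894 CPM in *brat* hets and from 2.87 to 30989 CPM in *HisRFP*. At NC13, summed zygotic blastoderm genes reached 832 CPM in *brat*-mutant replicate A and 1098 CPM in *HisRFP* replicate C, against 336 to 384 CPM in the other *brat*-mutant and 344 to 353 CPM in the other *HisRFP* libraries. The comparison of *brat* mutants with *HisRFP* at NC13 is given with and without those libraries.

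All 7 genes were read in every library. On a per-length scale (CPM per kilobase of exon), *lok* and *grp* headed the oocyte, with 224 ± 34.8 and 184 ± 25.6 in *brat* mutants, 214 ± 14.8 and 193 ± 12.3 in *brat* hets, and 209 ± 32.1 and 181 ± 20.4 in *HisRFP* (SD, n = 4 each). The libraries of these genes overlapped in each genotype. *Myt1* and *Wee1* came next, at 43.7 ± 10.5 and 39.1 ± 7.51 in *brat*-mutant and 52.9 ± 12.7 and 42.9 ± 6.99 in *HisRFP* oocytes, and they also overlapped. *mus304* followed at 17.5 ± 3.01 in *brat*-mutant and 19.9 ± 3.15 in *HisRFP* oocytes. The large sensor kinases were lowest, *tefu* at 9.54 ± 2.40 and *mei-41* at 7.76 ± 3.11 in *brat*-mutant oocytes, against 9.34 ± 1.09 and 4.91 ± 1.11 in *HisRFP* oocytes. No oocyte library had a sensor gene (*mus304*, *tefu* or *mei-41*) in the range of *lok* and *grp* on this scale.

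**Figure D1:**
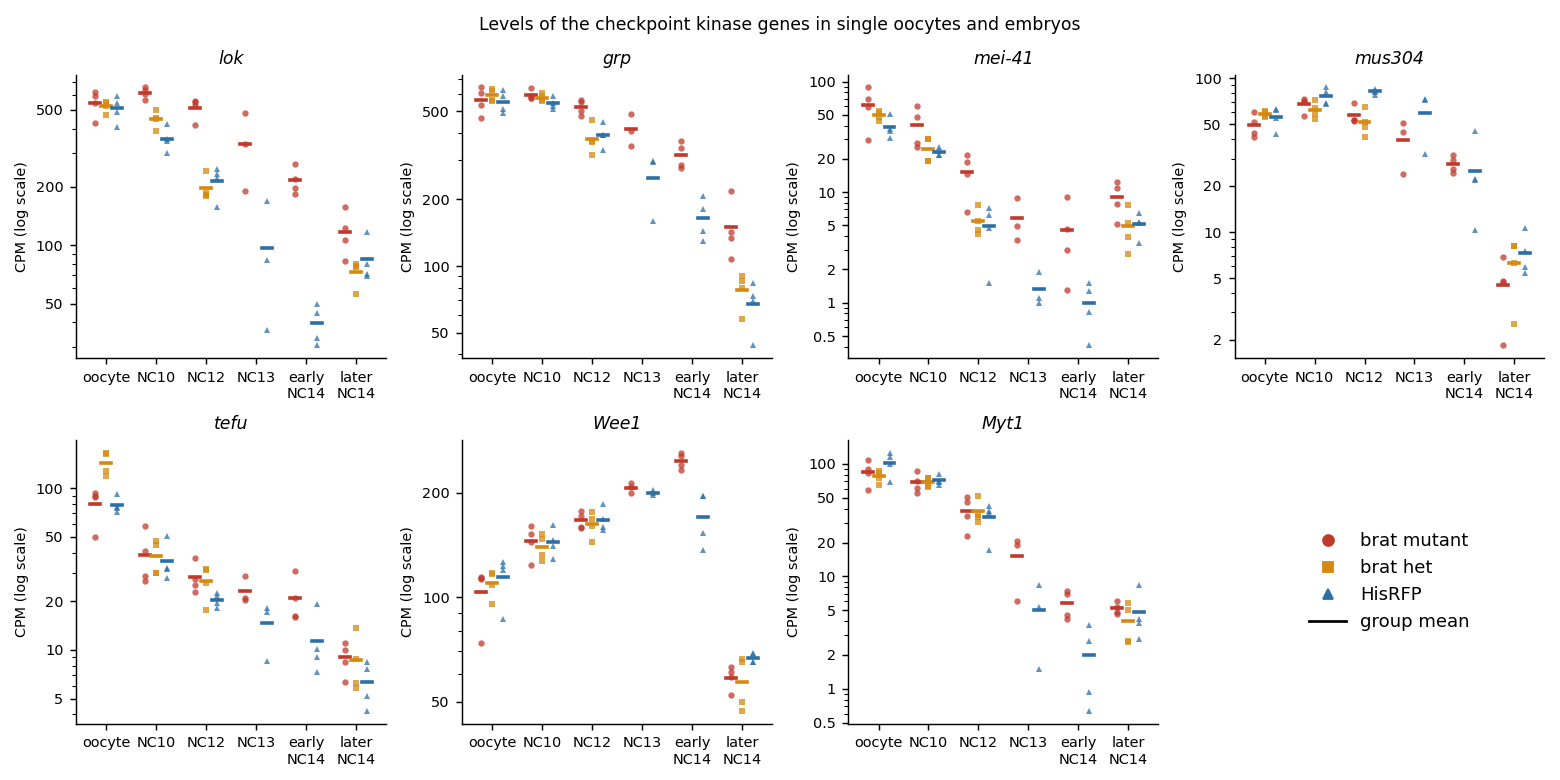
Level of each gene (CPM, log scale) in single oocytes and embryos by stage. Each point is a library, with *brat* mutants, *brat* hets and *HisRFP* from left to right in each stage, and short lines are group means. *lok* stayed between 183 and 264 CPM in early NC14 *brat* mutants, above all *HisRFP* embryos (30.4 to 49.7 CPM), whereas *Wee1* was highest of all groups in early NC14 *brat* mutants.

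The main difference between genotypes lay in *lok*. The calls of *grp* and *mei-41* against *HisRFP* were each lost when some single libraries were left out, as described below. Of 42 comparisons of *brat* mutants with *HisRFP* (7 genes at 6 stages), 4 were called, all higher in *brat* mutants: *lok* at NC12 and early NC14, *mei-41* at early NC14 and *grp* at later NC14. None of the 7 was called in oocytes, where 1.15% of all genes tested were called, or at NC10 (3.27%) and NC13 (3.91%), with 0, 2 and 3 of the 7 at an unadjusted p under 0.05 and 0, 0 and 2 called by DESeq2. The share of all genes called was 5.64% at NC12, where 1 of the 7 was called, 13.8% at early NC14 (2 of 7) and 13.7% at later NC14 (1 of 7). At later NC14 the 7 genes were thus called about as often as all genes. The median log2 fold change of the 7 genes was 0.00 in oocytes, 0.14 at NC10, 0.44 at NC12, 0.71 at NC13, 0.91 at early NC14 and 0.43 at later NC14, while that of all genes tested lay between -0.06 and 0.00. Between *brat* hets and *HisRFP*, 0 of 28 comparisons were called, with shares of 1.92% in oocytes, 3.44% at NC10, 4.37% at NC12 and 3.71% at later NC14 over all genes. Without the fold threshold, 2 of these 28 had an adjusted p under 0.05, *tefu* in oocytes and *mus304* at NC12. DESeq2 also called 0 of 28, and 5 of 28 had an unadjusted p under 0.05. *brat* mutants against *brat* hets gave 2 called of 28, *lok* and *mei-41* at NC12, where 1.74% of all genes were called, and 0 in oocytes (7.5%), at NC10 (0.175%) and at later NC14 (1.96%).

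**Figure D2:**
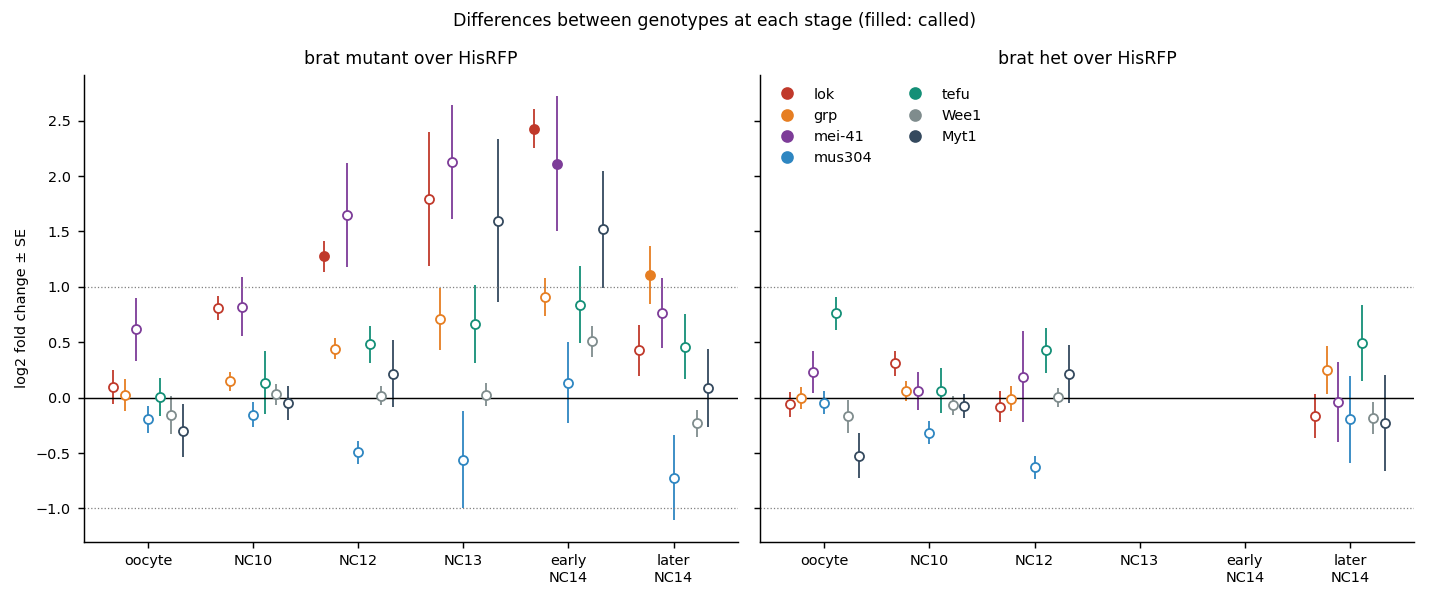
Log2 fold change (± SE) of each gene over *HisRFP* by stage, in *brat* mutants on the left and in *brat* hets on the right, which lack NC13 and early NC14. Filled points were called, and dotted lines mark the fold threshold. *lok* differed by 0.81 at NC10, 1.28 at NC12 and 2.43 at early NC14 in *brat* mutants, and in *brat* hets by -0.08 at NC12.

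*mei-41* (FBgn0004367) lies on chromosome X at positions 16391698 to 16399850 of dm6, plus strand, and encodes the ATR kinase that senses stalled or unfinished replication. Its mRNA ran down to a few CPM by NC13. In *brat* mutants it averaged 61.3 CPM in oocytes, 40.2 at NC10, 15.3 at NC12, 5.81 at NC13, 4.5 at early NC14 and 9.07 at later NC14, and in *HisRFP* 38.8, 23.0, 4.90, 1.33, 1.0 and 5.15 CPM at the same stages. The lowest values rested on few reads, with 9 to 58 reads per *HisRFP* library at early NC14.

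At early NC14, *mei-41* had 3.02, 9.01, 1.31 and 4.65 CPM in *brat* mutants A to D, against 1.28, 0.411, 0.824 and 1.5 CPM in *HisRFP* A to D. The groups overlapped, since *brat*-mutant C lay below *HisRFP* D. The difference was 2.11 ± 0.61 on the log2 scale (SE, adjusted p = 0.0354), a 4.32-fold higher level in *brat* mutants. The call was lost when any 1 of 6 libraries was left out (*brat*-mutant A, B or D, *HisRFP* A, B or C), with log2 fold changes of 1.6 to 2.26 and adjusted p between 0.0566 and 0.111 for *mei-41*.

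At NC12, *mei-41* had 18.6, 6.58, 21.5 and 14.5 CPM in *brat* mutants, against 7.64, 5.47, 4.51 and 4.14 CPM in *brat* hets and 7.14, 6.2, 1.51 and 4.75 CPM in *HisRFP*. *brat*-mutant B lay among the libraries of the other genotypes, and the other 3 *brat* mutants were above all of them. The level was higher in *brat* mutants than in *brat* hets (log2 fold change 1.47 ± 0.35, adjusted p = 0.0479), and set against *HisRFP* the difference of 1.65 ± 0.47 did not pass (adjusted p = 0.0540). The *mei-41* difference from *HisRFP* passed with DESeq2 (adjusted p = 0.00729), with genes of at least 1 read (0.0436), in a common fit of all groups (0.00847) and without *brat*-mutant B (0.0210). The call for *mei-41* against *brat* hets was lost with RLE factors (adjusted p = 0.0551), with library totals (0.0605) and without any 1 of 7 libraries, that is all but *brat*-mutant B (up to 0.143). At NC10 the *mei-41* values were 60.2, 27.6, 47.6 and 25.4 CPM in *brat* mutants and 21.6, 23.4, 25.4 and 21.4 CPM in *HisRFP* (0.82 ± 0.27, adjusted p = 0.125).

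*mus304* (FBgn0002901, chromosome 3L, 18109814 to 18112847, plus strand) encodes the ATRIP partner that carries MEI-41 to DNA. In *brat* mutants it averaged 49.4 CPM in oocytes, 67.4 at NC10, 57.3 at NC12, 39.9 at NC13, 27.8 at early NC14 and 4.56 at later NC14, and in *HisRFP* 55.9, 76.1, 81.9, 59.0, 24.9 and 7.34 CPM. The ratio of *mus304* to *mei-41* per length had a median of 10.3 in *brat* mutants and 42.8 in *HisRFP* at NC12, against 2.05 in *brat*-mutant and 4.54 in *HisRFP* oocytes. At later NC14 the median was 1.38 in *brat* mutants and 3.98 in *HisRFP*, below the oocyte medians, but libraries of the stages overlapped. In *HisRFP* the ratio ran from 2.85 to 5.61 at later NC14 and from 2.38 to 5.63 in oocytes. In *brat* mutants it ran from 0.657 to 2.66 and from 1.92 to 4.19. At NC12, *mus304* had 69.4, 53.7, 53.3 and 52.7 CPM in *brat* mutants, 64.5, 52.3, 41.3 and 48.1 CPM in *brat* hets and 85.6, 82.3, 77.9 and 81.9 CPM in *HisRFP*. All *HisRFP* embryos were above all embryos of the *brat* genotypes. The differences from *HisRFP* were -0.50 ± 0.10 in *brat* mutants (adjusted p = 0.0135) and -0.63 ± 0.10 in *brat* hets (adjusted p = 0.00497), both under the fold threshold.

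*tefu* (FBgn0045035, chromosome 3R, 15232212 to 15242236, minus strand) encodes the ATM kinase. Its mRNA was lower at NC10 than in oocytes in all 3 genotypes, at 38.6 ± 14.6 against 80.3 ± 20.2 CPM in *brat* mutants, at 37.9 ± 9.25 against 144 ± 24.1 CPM in *brat* hets and at 35.4 ± 10.1 against 78.6 ± 9.17 CPM in *HisRFP* (SD, n = 4 each). The *brat* het oocytes stood out, with 128, 165, 118 and 163 CPM, against 76.6, 91.9, 70.8 and 75.2 CPM in *HisRFP* oocytes. The groups did not overlap (log2 fold change 0.76 ± 0.15, adjusted p = 0.0402, under the fold threshold). *brat*-mutant oocytes had 50.2, 89.4, 88.1 and 93.5 CPM of *tefu*, all below the *brat* hets (-0.78 ± 0.18, adjusted p = 0.0204). The *brat* het oocytes also had the highest median of the summed follicle cell markers (37678 CPM, against 74.6 in *brat* mutants and 10247 in *HisRFP*), and the part of these markers in the *tefu* level was not tested. From NC10 on, *tefu* of *brat* hets overlapped with *HisRFP* at each stage sampled.

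*grp* (FBgn0261278, chromosome 2L, 16680054 to 16699926, plus strand) encodes the Chk1 kinase that carries the replication signal to the cell cycle. Its gene lies 2.43 Mb from *brat* on the same arm. It shares 12.2% of its exon bases with other genes, among them *squ* on the same strand, and reads on shared bases were not assigned. In *brat* mutants its mRNA averaged 561 CPM in oocytes, 590 at NC10, 521 at NC12, 413 at NC13, 317 at early NC14 and 150 at later NC14. The averages were 589 in oocytes, 575 at NC10, 375 at NC12 and 78.2 CPM at later NC14 in *brat* hets, and 551, 542, 390, 250, 165 and 67.7 CPM over the 6 stages in *HisRFP*.

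At later NC14, *grp* had 133, 142, 108 and 217 CPM in *brat* mutants, against 85.3, 79.6, 57.8 and 90.4 CPM in *brat* hets and 43.8, 84.1, 73.5 and 69.4 CPM in *HisRFP*. Every *brat* mutant was above every embryo of the other genotypes, and replicate D was highest. Against *HisRFP* the level was 2.15-fold higher in *brat* mutants (log2 fold change 1.11 ± 0.26, adjusted p = 0.0137), and against *brat* hets the difference was 0.93 ± 0.24 (adjusted p = 0.0773). Summed zygotic blastoderm genes at later NC14 were 4013, 4030, 3211 and 5601 CPM in *brat* mutants A to D. They ran from 2966 to 3423 CPM in *brat* hets and from 4098 to 6598 CPM in *HisRFP*. *brat*-mutant A, B and C and all *brat* hets thus lay below every *HisRFP* embryo. The part of this gap in the levels of *grp* and the other genes was not tested. The *grp* difference from *HisRFP* was 0.90 without *brat*-mutant D and 0.96 without *HisRFP* A, each under the fold threshold.

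The groups separated before that stage too. At early NC14, *grp* had 286, 366, 278 and 340 CPM in *brat* mutants and 181, 207, 143 and 130 CPM in *HisRFP*, without overlap (0.91 ± 0.17, adjusted p = 0.00452). At NC12 it had 562, 473, 549 and 500 CPM in *brat* mutants, 454, 366, 361 and 316 CPM in *brat* hets and 446, 388, 334 and 390 CPM in *HisRFP*. All *brat* mutants were again highest, with differences of 0.45 ± 0.11 from *brat* hets (adjusted p = 0.0485) and 0.44 ± 0.09 from *HisRFP* (adjusted p = 0.0147). These differences of *grp* stayed under the fold threshold.

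*lok* (FBgn0019686, chromosome 2L, 20061422 to 20064381, plus strand) encodes the Chk2 kinase, known in fly embryos for disabling the centrosomes of nuclei with damaged DNA. Its gene is 0.882 Mb from *brat* on the same arm, its exons share 121 bases with *vls* on the opposite strand, and the breakpoints of the *brat* deficiency were not given in the sources used here. In oocytes *lok* had 618, 427, 593 and 544 CPM in *brat* mutants, 524, 471, 552 and 543 CPM in *brat* hets and 591, 545, 489 and 409 CPM in *HisRFP*, with all groups overlapping (0.10 ± 0.16 between *brat* mutants and *HisRFP*, adjusted p = 0.843).

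From NC10 to early NC14 the *brat* mutants lay above the other genotypes sampled. *lok* had 561, 601, 633 and 653 CPM in *brat* mutants, 497, 455, 389 and 448 CPM in *brat* hets and 346, 300, 355 and 422 CPM in *HisRFP* at NC10. All *brat* mutants were above all *brat* hets, and 3 of 4 *brat* hets were above all *HisRFP* embryos. The difference between *brat* mutants and *HisRFP* was 0.81 ± 0.11 (adjusted p = 0.00239, under the fold threshold), and that between *brat* hets and *HisRFP* was 0.31 ± 0.11 (adjusted p = 0.152).

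At NC12, *lok* had 555, 550, 530 and 420 CPM in *brat* mutants, against 241, 179, 186 and 182 CPM in *brat* hets and 248, 234, 158 and 224 CPM in *HisRFP*. Of the *brat* mutants, 3 of 4 lay in the range of their oocytes (427 to 618 CPM), and the *brat* hets and *HisRFP* embryos overlapped below them. The level in *brat* mutants was 2.42-fold higher than in *HisRFP* (log2 fold change 1.28 ± 0.14, adjusted p = 0.000551) and 2.57-fold higher than in *brat* hets (1.36 ± 0.12, adjusted p = 0.00107). Between *brat* hets and *HisRFP* it was -0.08 ± 0.14 (adjusted p = 0.795).

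The widest gap was at early NC14. *lok* had 264, 220, 197 and 183 CPM in *brat* mutants, against 30.4, 44.9, 33.4 and 49.7 CPM in *HisRFP*. The lowest *brat* mutant was above the highest *HisRFP* embryo by a wide margin, and the level was 5.37-fold higher in *brat* mutants (2.43 ± 0.18, adjusted p = 1.26e-05). 3.62% of the genes tested had a higher log2 fold change than *lok* at this stage. Summed zygotic blastoderm genes overlapped between these groups, at 470 to 946 CPM in *brat* mutants and 490 to 1565 CPM in *HisRFP*, as did summed maternal germ line mRNAs (761 to 1236 CPM in *brat* mutants and 707 to 1120 CPM in *HisRFP*). At later NC14, *lok* had 123, 157, 106 and 82.9 CPM in *brat* mutants, 78.2, 55.8, 79.7 and 77.2 CPM in *brat* hets and 79.8, 71.1, 69.4 and 118 CPM in *HisRFP*. Here *brat* mutants overlapped with *HisRFP* (0.43 ± 0.23, adjusted p = 0.204), and lay just above *brat* hets (0.67 ± 0.21, adjusted p = 0.138). At later NC14 the summed zygotic genes were lower in most *brat* mutants and in all *brat* hets than in *HisRFP*, as given for *grp*. The calls of *lok* at NC12 and early NC14 held with every alternative setting and with any 1 library left out, with adjusted p up to 0.0120 and 0.000417.

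At NC13, with all libraries, *lok* had 191, 333 and 481 CPM in *brat* mutants A, C and D and 83.8, 36.7 and 169 CPM in *HisRFP* A, C and D. The lowest library of each genotype was the one highest in zygotic genes, and the groups did not overlap (1.79 ± 0.61, adjusted p = 0.181). *grp* followed the same order, with 346, 408 and 485 CPM in *brat* mutants and 295, 160 and 296 CPM in *HisRFP* (0.71 ± 0.28, adjusted p = 0.243). Without *brat*-mutant A and *HisRFP* C, a fit chosen after the data had been seen that left 2 libraries per genotype, *lok* (1.71, adjusted p = 0.0202), *mei-41* (2.23, adjusted p = 0.0239) and *Myt1* (1.56, adjusted p = 0.0123) were called higher in *brat* mutants. In that fit *grp* differed by 0.63 (adjusted p = 0.00817) and *mus304* by -0.56 (adjusted p = 0.0342), both under the fold threshold, *tefu* by 0.52 (adjusted p = 0.140) and *Wee1* by 0.07 (adjusted p = 0.564). There 11.2% of all genes tested were called, against 3.91% with all libraries.

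*Wee1* (FBgn0011737, chromosome 2L, 6911090 to 6914138, minus strand) encodes the nuclear kinase that inhibits Cdk1, and 12.6% of its exon bases are shared with *Rat1* on the opposite strand. It alone of the 7 mRNAs had a higher mean at early NC14 than in oocytes. In *brat* mutants it averaged 104 CPM in oocytes, 145 at NC10, 166 at NC12, 206 at NC13, 247 at early NC14 and 58.6 at later NC14. *brat* hets had 109, 140, 162 and 57.1 CPM in oocytes, at NC10, NC12 and later NC14, and *HisRFP* had 114, 144, 167, 200, 170 and 66.9 CPM over the 6 stages. The genotypes overlapped at each stage through NC13. At early NC14 *Wee1* had 260, 240, 232 and 255 CPM in *brat* mutants, against 196, 196, 136 and 153 CPM in *HisRFP*. All *brat* mutants were higher, by 0.51 ± 0.14 (adjusted p = 0.0321, under the fold threshold). At later NC14 all *brat* mutants lay just below *HisRFP*, with 62.7, 52.4, 60.7 and 58.8 CPM in *brat* mutants and 65.2, 68.6, 69.0 and 64.8 CPM in *HisRFP* (-0.23 ± 0.12, adjusted p = 0.201).

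*Myt1* (FBgn0040298, chromosome 3L, 5777476 to 5779591, minus strand) encodes the membrane-bound kinase that inhibits Cdk1. In *brat* mutants its mRNA averaged 84.9 CPM in oocytes, 68.5 at NC10, 38.5 at NC12, 15.1 at NC13, 5.76 at early NC14 and 5.23 at later NC14, and in *HisRFP* 103, 71.6, 33.6, 5.05, 1.98 and 4.82 CPM. At early NC14 *Myt1* had 4.58, 6.99, 7.34 and 4.14 CPM in *brat* mutants, against 0.638, 2.65, 0.934 and 3.72 CPM in *HisRFP*. The groups did not overlap, but the difference of 1.52 ± 0.53 did not pass (adjusted p = 0.0688). It passed with DESeq2 (adjusted p = 0.0249), with all groups in a common fit (0.00326) and without *HisRFP* D (0.0270) for *Myt1*.

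The Cdk1 inhibitors therefore parted during the syncytial cycles. Inside a library, *Myt1* over *Wee1* per length had a median of 1.08 in *brat*-mutant and 1.18 in *HisRFP* oocytes, 0.333 in *brat* mutants and 0.314 in *HisRFP* at NC12, and 0.0319 in *brat* mutants and 0.0139 in *HisRFP* at early NC14. The ratio of *lok* to *grp*, for which no test was run, did not overlap between *brat* mutants and *HisRFP* at NC10, NC12 and early NC14. It ran from 1.15 to 1.27 in *brat*-mutant and from 1.0 to 1.25 in *HisRFP* oocytes. At NC10 it lay at 1.2 to 1.43 in *brat* mutants, 0.835 to 1.03 in *brat* hets and 0.711 to 0.901 in *HisRFP*. At early NC14 the range was 0.674 to 1.15 in *brat* mutants, against 0.210 to 0.477 in *HisRFP*. At later NC14 it was 0.477 to 1.39 in *brat* mutants, 0.877 to 1.72 in *brat* hets and 1.06 to 2.28 in *HisRFP*, and the genotypes overlapped.

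**Figure D3:**
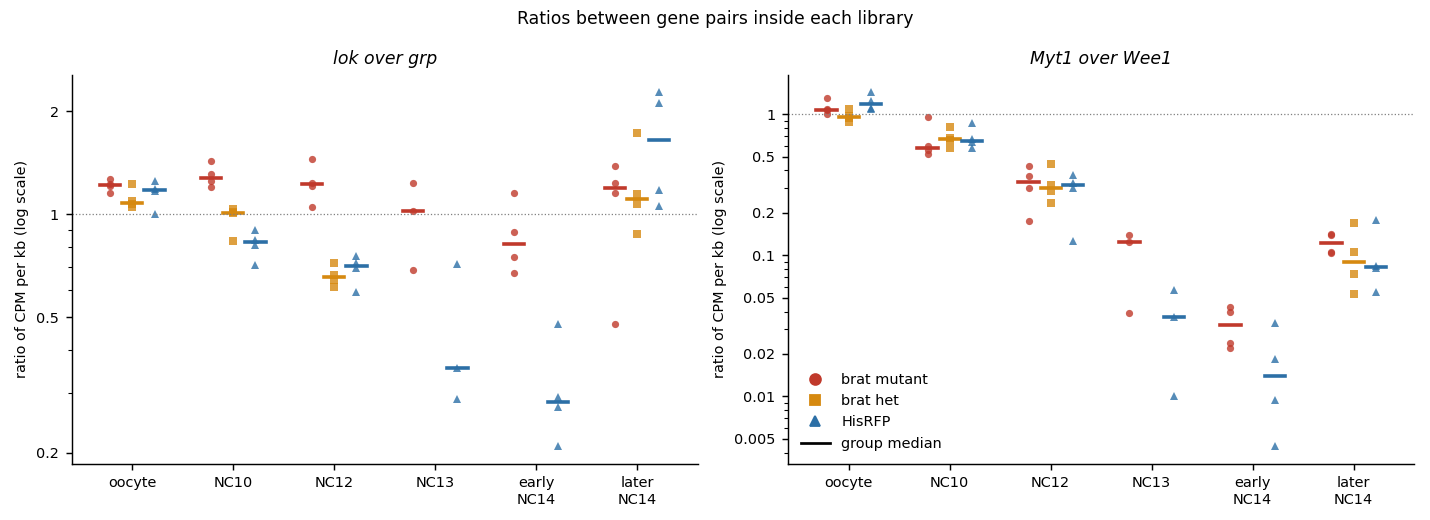
Ratio of CPM per kilobase (log scale) inside each library by stage, *lok* over *grp* on the left and *Myt1* over *Wee1* on the right. Points are libraries, with *brat* mutants, *brat* hets and *HisRFP* from left to right in each stage, and lines are group medians. *lok* over *grp* had a median of 0.820 in *brat* mutants and 0.281 in *HisRFP* at early NC14, whereas *Myt1* over *Wee1* was low in both genotypes.

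At early NC14 the order of the 7 genes by level per length had changed. In *brat* mutants *grp* (104 ± 13.9), *Wee1* (93.1 ± 4.96) and *lok* (88.6 ± 14.5 CPM per kilobase) headed it and overlapped as neighbours, and *mus304* (9.86 ± 1.26), *Myt1* (2.97 ± 0.844), *tefu* (2.50 ± 0.821) and *mei-41* (0.569 ± 0.418) followed. In *HisRFP*, *Wee1* (64.2 ± 11.5) and *grp* (54.3 ± 11.5) were first and overlapped, *lok* (16.2 ± 3.77) overlapped with *mus304* (8.83 ± 5.25), and *tefu* (1.36 ± 0.626) with *Myt1* (1.02 ± 0.751), above *mei-41* at 0.127 ± 0.0613 CPM per kilobase (SD, n = 4 each).

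The comparison of early NC14 with oocytes was added after the data had been seen, to follow the maternal supply across the whole syncytial period. In *brat* mutants 4 mRNAs fell, *mei-41* (log2 fold change -3.61 ± 0.50), *lok* (-1.26 ± 0.15), *tefu* (-1.83 ± 0.25) and *Myt1* (-3.81 ± 0.24), and *Wee1* rose (1.34 ± 0.14, adjusted p = 3.28e-06), where 59.4% of all genes were called and the median of all genes was 0.32. In *HisRFP*, 6 of the 7 mRNAs fell: *grp* (log2 fold change -1.71 ± 0.19, adjusted p = 6.73e-05), *mei-41* (-5.22 ± 0.44), *mus304* (-1.15 ± 0.40), *lok* (-3.67 ± 0.22), *tefu* (-2.76 ± 0.34) and *Myt1* (-5.64 ± 0.58), where 61.9% of all genes tested were called. *grp* (-0.74 ± 0.16) and *mus304* (-0.74 ± 0.14) stayed under the fold threshold in *brat* mutants, as did *Wee1* in *HisRFP* (0.61 ± 0.19). With library totals, which put the median of all genes at 0.03 in *brat* mutants and -0.16 in *HisRFP*, *grp* (-1.03) and *mus304* (-1.04) were also called in *brat* mutants. The *HisRFP* oocytes and embryos overlapped for *mus304*, and its call was lost without oocyte replicate A, B or D or early NC14 replicate A, C or D (-0.69 to -1.18, adjusted p between 0.0501 and 0.0829) and with genes of at least 1 read (-0.90, adjusted p = 0.0586). As a share of the oocyte mean, *lok* stood at 39.6% in *brat* mutants and 7.79% in *HisRFP* at early NC14, *grp* at 56.6% and 30.0%, *Myt1* at 6.79% and 1.93%, *mei-41* at 7.34% and 2.58%, *tefu* at 26.2% and 14.5%, *mus304* at 56.2% and 44.5%, and *Wee1* at 238% and 149%.

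Whether these changes differed between the genotypes was tested in the same model. The change of *lok* was less negative in *brat* mutants by 2.18 ± 0.25 (adjusted p = 2.30e-05), and it was called, as were 6.84% of all genes. All 7 differences were positive. That of *grp* was 0.76 ± 0.22 (adjusted p = 0.0403, under the fold threshold) and that of *Myt1* 1.62 ± 0.57 (adjusted p = 0.0961), and the other 4 had adjusted p between 0.163 and 0.778. The median over the 7 genes was 0.76, against -0.10 over all genes tested, which include zygotic genes. Of 19 checkpoint partner genes described below, 10 had positive and 9 negative differences, with a median of 0.06. A set made up of cleared maternal mRNAs alone was not compared.

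**Figure D4:**
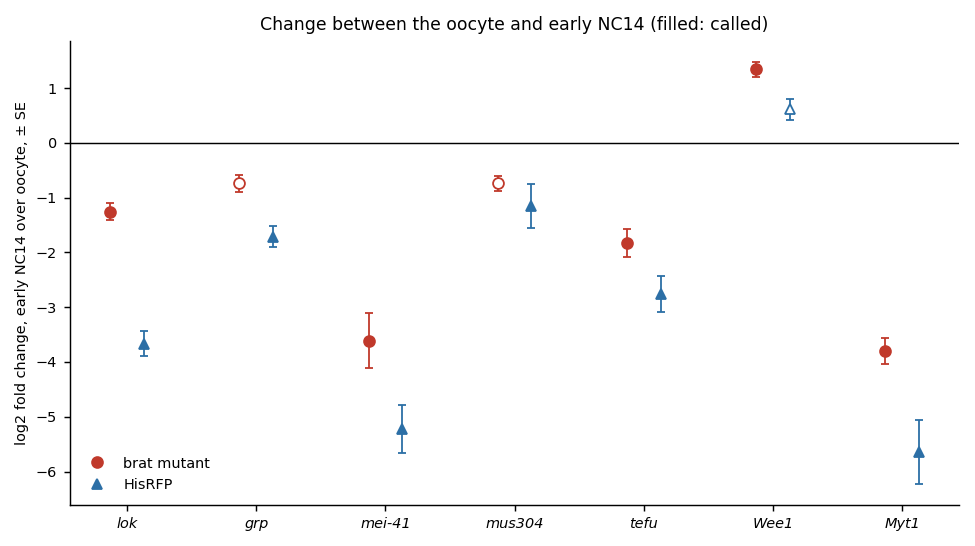
Log2 fold change of early NC14 over oocyte (± SE) for each gene, in *brat* mutants on the left and *HisRFP* on the right of each pair. Filled points were called. *lok* changed by -1.26 in *brat* mutants and -3.67 in *HisRFP*, and *Wee1* rose in *brat* mutants (1.34).

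Stage by stage, the maternal mRNAs did not run down together. In *brat* mutants, 4 of 35 steps between consecutive stages were called, all lower. *tefu* fell between the oocyte and NC10 (-1.09 ± 0.28, adjusted p = 0.0207, with 12.4% of all genes called), and this call was lost with library totals (-1.0), without NC10 replicate B, C or D and without oocyte replicate B (adjusted p up to 0.0591 for *tefu*). Between early and later NC14 (45.6%) *mus304* (-2.39 ± 0.31, adjusted p = 0.000110), *tefu* (-1.0 ± 0.27, adjusted p = 0.00836) and *Wee1* (-1.85 ± 0.11, adjusted p = 1.30e-06) fell. The *tefu* change lay on the fold threshold and was -0.77 without early NC14 replicate B, -0.85 without later NC14 replicate C and -0.99 without early NC14 replicate D, and -0.97 with the filterByExpr filter. No member was called between NC10 and NC12 (2.24%). Between NC12 and NC13 and between NC13 and early NC14 edgeR called 0% of all genes, with 2849 of 7132 and 1718 of 7525 genes at an unadjusted p under 0.05. DESeq2 called *mei-41* (-1.41, adjusted p = 0.0254) and *Myt1* (-1.36, adjusted p = 0.0231) lower at NC13 than at NC12. Without NC13 replicate A, *Myt1* was lower at early NC14 than at NC13 (-1.80, adjusted p = 0.00209).

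In *brat* hets, 10 of 21 steps were called, all lower. *mei-41* (-1.06 ± 0.16) and *tefu* (-1.97 ± 0.17) fell between the oocyte and NC10 (19.2%), and *mei-41* (-2.04 ± 0.24) and *lok* (-1.05 ± 0.11) between NC10 and NC12 (16.1%). *lok* without NC12 replicate B was at -0.99, and *mei-41* between the oocyte and NC10 was at -0.90 without NC10 replicate C and -0.92 without NC10 replicate D, under the fold threshold. Over the longer step between NC12 and later NC14 (47.6%), *grp* (-1.99), *mus304* (-2.80), *lok* (-1.16), *tefu* (-1.35), *Wee1* (-1.24) and *Myt1* (-3.01) fell, with adjusted p between 5.50e-06 and 0.00343, and *mei-41* did not pass (0.12 ± 0.38, adjusted p = 0.780).

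In *HisRFP*, 10 of 35 steps between consecutive stages were called, 8 lower and 2 higher. *tefu* fell between the oocyte and NC10 (-1.24 ± 0.19, adjusted p = 0.00134, with 12.7% of all genes called). *mei-41* (-2.15 ± 0.34, adjusted p = 0.00230) and *Myt1* (-1.03 ± 0.23, adjusted p = 0.00964) fell between NC10 and NC12 (14.9%). Without *HisRFP* NC10 replicate A or NC12 replicate C the change of *Myt1* in that step was -0.94 or -0.81, under the fold threshold. *mei-41* (-1.89 ± 0.55, adjusted p = 0.0310) and *Myt1* (-2.74 ± 0.60, adjusted p = 0.0222) fell again between NC12 and NC13 (22.4%). In this step same-lettered *HisRFP* embryos deviated together, and with the letter as a block *mei-41* did not pass (-1.6, adjusted p = 0.0643), nor did it without NC12 replicate A, B or D or NC13 replicate A or C (adjusted p up to 0.0852). *Myt1* lost its call in the step without NC12 replicate A, B or D or NC13 replicate A (adjusted p between 0.0546 and 0.0655).

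No member was called between NC13 and early NC14 in *HisRFP*, where edgeR called 0% of all genes and 1800 of 7676 had an unadjusted p under 0.05. In the common fit of all groups *mus304* (-1.25, adjusted p = 0.00226), *lok* (-1.29, adjusted p = 0.000391) and *Myt1* (-1.30, adjusted p = 0.0197) passed in this step, as did *lok* without NC13 replicate C (-1.72, adjusted p = 0.0358).

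Between early and later NC14 the genes split by direction in *HisRFP*, with 34.3% of all genes called. *grp* (-1.14 ± 0.24, adjusted p = 0.00371), *mus304* (-1.62 ± 0.43, adjusted p = 0.0132) and *Wee1* (-1.2 ± 0.16, adjusted p = 0.000471) fell, while *mei-41* (2.50 ± 0.46, adjusted p = 0.00207) and *lok* (1.24 ± 0.22, adjusted p = 0.00166) rose. *lok* had 79.8, 71.1, 69.4 and 118 CPM at later NC14, against 30.4, 44.9, 33.4 and 49.7 CPM at early NC14, and *mei-41* had 6.52, 3.49, 5.32 and 5.29 CPM, against 1.28, 0.411, 0.824 and 1.5 CPM. All later embryos were higher for both genes, whereas *mus304* overlapped between the stages. Without later NC14 replicate A the change of *grp* was -0.97, under the fold threshold.

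Of 35 differences in step between *brat* mutants and *HisRFP*, 1 was called. Between early and later NC14, where 8.86% of all genes were called, *lok* changed by -0.67 ± 0.19 in *brat* mutants and by 1.24 ± 0.22 in *HisRFP*, a difference of -1.89 ± 0.31 (adjusted p = 0.00173). *Wee1* differed by -0.64 ± 0.17 in the same step (adjusted p = 0.0261, under the fold threshold). In the earlier steps no member was called, and few genes were, with 0.13% between the oocyte and NC10, 0.0139% between NC10 and NC12, 0.0262% between NC12 and NC13 and 0% between NC13 and early NC14, where 527 of 8452 genes had an unadjusted p under 0.05. The largest member difference in the first step was *lok* (0.71 ± 0.18, adjusted p = 0.312).

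Partner genes of the checkpoint were taken as a list of 23, of which 20 matched a row and 19 could be tested, *Rad1* having too few reads. Between *brat* mutants and *HisRFP*, 8 of 114 comparisons were called, 7 higher and 1 lower in *brat* mutants. By stage these were 0 of 19 in oocytes (1.15% of all genes called), 0 at NC10 (3.27%), 1 at NC12 (5.64%), 1 at NC13 (3.91%), 3 at early NC14 (13.8%) and 3 at later NC14 (13.7%), so the list was called about as often as all genes. In the clamp that marks damage for MEI-41 and its loader, *Hus1-like* was higher at later NC14 (12.3 ± 1.5 CPM in *brat* mutants and 5.84 ± 0.90 CPM in *HisRFP*, 1.03 ± 0.21, adjusted p = 0.00722). Among the mediators, *mus101*, the TopBP1 gene, was lower at later NC14 (1.28 ± 0.71 CPM in *brat* mutants and 4.58 ± 1.73 CPM in *HisRFP*, -1.88 ± 0.48, adjusted p = 0.0205).

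Among the genes of break sensing and repair, *rad50*, a subunit of the complex that activates ATM, was higher at NC12 (38.3 ± 9.83 CPM in *brat* mutants and 17.7 ± 6.10 CPM in *HisRFP*, 1.13 ± 0.29, adjusted p = 0.0341). In the Cdk1 module, *stg*, the Cdc25 phosphatase gene that reverses the action of Wee1 and Myt1, was higher at early NC14 (1553 ± 366 CPM in *brat* mutants and 48.8 ± 24.6 CPM in *HisRFP*, 4.97 ± 0.35, adjusted p = 1.11e-05) and at later NC14 (136 ± 33.7 CPM in *brat* mutants and 35.5 ± 37.9 CPM in *HisRFP*, 1.90 ± 0.59, adjusted p = 0.0415). *CycB*, a mitotic cyclin gene, was higher at early NC14 (4361 ± 470 CPM in *brat* mutants and 1591 ± 485 CPM in *HisRFP*, 1.44 ± 0.21, adjusted p = 0.00109).

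The median log2 fold change of the partner genes was 0.09 in oocytes, at NC10 and at NC12, 0.35 at NC13, 0.22 at early NC14 and 0.31 at later NC14, against -0.06 to 0.00 over all genes tested. Between *brat* hets and *HisRFP* 0 of 76 were called, where the shares of all genes lay between 1.92% and 4.37%, and between *brat* mutants and *brat* hets 1 of 76, *stg* at later NC14 (2.1, with 1.96% of all genes called). The step between early and later NC14 differed between *brat* mutants and *HisRFP* for 3 of 19 partner genes, among them *mus101* (-4.18) and *stg* (-2.95), where 8.86% of all genes were called.

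Over all 62 libraries, which share their stages and genotypes, the pattern of each gene (log2 of CPM plus 1) was set beside those of 6367 genes with a mean of at least 5 CPM, as a description. Closest to *mei-41* was *rad50* (Pearson r = 0.962), followed by FBgn0030170 (0.959), an identifier that was not matched to a symbol. Closest to *mus304* were *GATAd* (0.979) and *Rad17* (0.977), the loader of the damage clamp. *Snm1* (0.969) and *CanB2* (0.965) were closest to *grp*, *E(var)3-9* (0.966) and *ppl* (0.964) to *lok*, *CG8399* (0.937) and *CG7091* (0.935) to *tefu*, *CG9062* (0.959) and *CG6425* (0.957) to *Wee1*, and *Hsc70-5* (0.988) and *CG30109* (0.981) to *Myt1*. Among the 7 genes themselves the closest pair was *lok* and *Myt1* (0.900), and *Wee1* stood apart from *mei-41* (-0.19) and *Myt1* (0.134).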

How the data were processed

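The authors aligned the 75-bp reads to dm6 with HISAT2 2.1.0, discarded reads that mapped to several places, filtered with SAMtools and counted reads per gene with featureCounts 1.5.3 in its default mode, which ignores strand and leaves out reads on 2 genes. The authors deposited the resulting whole-number counts as they were, not normalized. Identifiers were matched to Ensembl 115 names and exons (BDGP6.54, the dm6 assembly), with 17405 of 17510 matched. Counts were analysed with edgeR 4.0.16 in R 4.3.3 (TMM, quasi-likelihood F-test, libraries of the compared groups only, genes with at least 50 reads summed over them) and DESeq2 1.42.0 as an alternative, and tables and figures with Python 3.11.15. SEs were derived from the log2 fold changes and their F statistics. The scripts were tested on simulated data.

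The members and lists were chosen with earlier results of these data known. Genes are named by a rule: the 7 members, partner genes called between *brat* mutants and *HisRFP*, the 2 genes most like each member, and *brat*. Of the partner list, RPA2, RPA3 and BRCA2 did not match a row, nor did nos among the germ line markers. The values of 1 partner gene, called in 2 of the 8 comparisons, are not reported here, although the counts over the list include it. Other alternatives were RLE factors, library totals, edgeR's filterByExpr, genes with at least 1 read, a common fit of all groups, a replicate block, no fold threshold and each library left out. Replicate letters have no stated meaning. Deviations from the group means correlated positively in every same-lettered pair of *brat* hets and *HisRFP* at later NC14 (mean r = 0.213). The same held, weakly, for *HisRFP* at NC12 and NC10 (mean r = 0.072). On average such correlation was strongest for *HisRFP* in the step between NC12 and NC13 (r between 0.231 and 0.524). The main fits had no block, in this step too, so the calls given for it come from unpaired fits. With the replicate block, run as an alternative, *mei-41* did not pass in this step (adjusted p = 0.0643).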

Additional observations from a re-analysis of the deposited data

Results flagged for a closer look

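Of 98 sets of 4 values, each of 1 gene in 1 group of 4 libraries, 6 had 1 value apart from the other 3 by Dixon's criterion. Chance alone gives this in about 1 set in 20, but the sets share libraries and are not independent. *brat*-mutant oocyte A was low for *tefu* (50.2 CPM, against 88.1 to 93.5 in the others) and for *Wee1* (73.8 CPM, against 113 to 114), and it had the highest summed follicle cell markers of the *brat*-mutant oocytes (266 CPM). Of these oocytes, A was also lowest for *mei-41* (29.5 CPM), *Myt1* (58.5 CPM) and summed maternal germ line mRNAs (1557 CPM, against 2157 to 2431). It was highest for *grp* (639 CPM) and *lok* (618 CPM), so its deviation was not limited to the flagged genes. *HisRFP* oocyte B was low for *Wee1* (86.4 CPM, against 120 to 127 in the others). *brat*-mutant NC12 A was high for *mus304* (69.4 CPM, against 52.7 to 53.7), and *brat* het NC12 A for *lok* (241 CPM, against 179 to 186). *brat* het later NC14 B was low for *lok* (55.8 CPM, against 77.2 to 79.7).

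Changes between stages differed between *brat* mutants and *HisRFP* by the test of the difference itself for *lok* between early and later NC14 (-1.89, adjusted p = 0.00173) and between the oocyte and early NC14 (2.18, adjusted p = 2.30e-05), for *Wee1* between early and later NC14 (-0.64, adjusted p = 0.0261) and for *grp* between the oocyte and early NC14 (0.76, adjusted p = 0.0403). The differences for *Wee1* and *grp* were under the fold threshold. The comparison of the oocyte with early NC14 was added after the data had been seen. It uses the same early NC14 libraries as the direct comparison of the genotypes at that stage.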

How the results depend on the processing

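The count of called members among the 42 comparisons of *brat* mutants with *HisRFP* was 4, and it was 8 with DESeq2, 7 with genes of at least 1 read, 9 with all groups in a common fit, 9 by adjusted p alone, 7 without *brat*-mutant A and *HisRFP* C at NC13, and 3 with the replicate block, under which *mei-41* at early NC14 lost its call (adjusted p = 0.108). In *brat* hets against *HisRFP* it was 0 of 28, and 2 by adjusted p alone. *brat* mutants against *brat* hets gave 2 of 28, with 1 under RLE factors, 1 under library totals and 4 by adjusted p alone. The *HisRFP* steps gave 10 of 35, with 12 under DESeq2, 15 in the common fit and 17 by adjusted p alone. The *brat*-mutant steps gave 4 of 35, with 9 under DESeq2, 7 with genes of at least 1 read, 9 in the common fit, 8 by adjusted p alone, 3 under library totals, 3 under filterByExpr and 5 without the NC13 libraries. The *brat* het steps gave 10 of 21 and from 9 to 14 over the settings, and early NC14 over oocyte 12 of 21 and from 11 to 16. The difference in steps gave 1 of 35, and 2 by adjusted p alone. With any 1 library left out these counts ran from 3 to 5, 0 to 0, 1 to 2, 8 to 11, 3 to 5 and 1 to 1 in this order, from 9 to 10 for the *brat* het steps and from 11 to 13 of 21 for early NC14 over oocyte. With the replicate block the *HisRFP* steps gave 11: *mei-41* lost its call between NC12 and NC13 (-1.6), while *mus304* was lower at early NC14 than at NC13 (-1.7, adjusted p = 0.0243) and *Myt1* higher at later than at early NC14 (1.64, adjusted p = 0.0482). The *brat*-mutant steps gave 4 with the block, where *tefu* lost both of its calls and *mei-41* gained calls at NC12 over NC10 (-1.35, adjusted p = 0.0332) and later over early NC14 (1.44, adjusted p = 0.0125). The block changed no other call of the 7 genes. No called change was of opposite sign under any alternative. The lowest values rested on 9 reads for *mei-41* and 14 for *Myt1*. Both were in *HisRFP* at early NC14 and went with low levels (0.411 CPM of *mei-41* and 0.638 CPM of *Myt1*). For *mus304* the lowest value rested on 15 reads, in *brat* mutants at later NC14. The part of low read counts in the calls was not tested. The common fit shares its spread over more libraries, and adjusted p alone drops the fold criterion. For the other settings the cause was not tested.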
